A study of Mus musculus with 8 samples.

Results

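Genes that control fibroblasts already express and that stood at least 2-fold higher in each of 3 lines with impaired Polycomb repression made up 132 of the 875 genes in the table analysed here. The members were chosen by their measured values: log2 of the mean signal of a group plus 1 had to exceed 3 in control cells and to be higher by at least 1 in all 3 lines, while symbols of several families (among them transporters, ion channels, collagens, integrins and Hox and Fox factors) were set aside. Every group descends from mouse embryonic fibroblasts (MEFs) taken at E13.5, in which exons 3 to 6 of Eed lie between loxP sites. Control cells were the parental floxed cells, EZHIP cells expressed human EZHIP from a lentivirus, K27M cells expressed histone H3.3 with the K27M substitution from a lentivirus, and EED-null cells had lost Eed through a hit-and-run Cre lentivirus and descend from a single clone. Total RNA was depleted of ribosomal RNA before sequencing, with RNA of FFT cells added as a spike-in. Each group has 2 libraries, 8 in all. Each group is a single line, and the labels do not say that replicates were separate cultures, so the p-values below measure only the spread between these samples, which may be technical.

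Polycomb repressive complex 2 (PRC2) places methyl groups on lysine 27 of histone H3. EZH2 carries the catalytic site, and EED binds the trimethylated product and is required for the complex to work. Its mark, H3K27me3, lies over CpG-rich promoters of developmental genes and keeps them off in lineages where they are not needed. The K27M substitution, found in diffuse midline gliomas, and EZHIP, a protein of posterior fossa ependymomas, both block the enzyme, whereas loss of EED removes the complex. The genes described here are not the silent class, since each was already transcribed in the parental fibroblasts. The paper reported that both silent and lowly expressed genes with high H3K27me3 at their promoters rose. Its class of low expression reached up to a log2 level of 5.5 in parental cells. Of the 132 members, 75 had a control level of 5.5 or less. Whether the members carried or lost H3K27me3 at their promoters was not tested.

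Signal is the number of reads that RSEM assigned to a gene divided by a size factor of the library. The table holds the genes that differ between EZHIP and control cells, so it is not the whole transcriptome, and a gene that differs from control in K27M or EED-null cells but not in EZHIP cells cannot be in it. Of the 875 genes, 728 passed the control level and 257 were at least 2-fold higher in all 3 lines. Both conditions held for 141, and 9 of these were set aside by symbol, among them Abca1, Cacna1h, Foxd1, Itga6, Peg3 and Sfmbt2. A further 97 genes stood at least as far above control in all 3 lines but had a control level of 3 or less, counted after the same symbols were set aside. No filter on low values was applied, so all 132 members are in every count of signal. Counts that need a place in the genome or a transcript length hold 129 members.

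The members started lower than the listed genes as a whole, with medians of 5.27 and 5.07 in the control libraries against 6.58 and 6.60. Their median level, as log2(signal + 1), was 5.18 in control cells, and 7.36 with EZHIP, 8.15 with K27M and 7.996 without EED. Control levels ran from 3.16 to 11.41, and 75 of the 132 lay at 5.5 or below. The median rise over control was 1.99 for EZHIP (range 1.03 to 6.77), 2.38 for K27M (1.04 to 6.49) and 2.37 for EED-null cells (1.03 to 8.23). All 6 libraries of the lines lay above both control libraries for all 132 genes. For 101 of them the lowest of the 6 was at least 2-fold above the higher control library in signal without the added 1. These library counts have no share of all 875 genes beside them, and nothing is read from them. The rises are what the members were selected on, and they support nothing here. The rule made the 132 members higher in each line, and limma called all 132 so, where 56.0% of all 875 genes were called higher in EZHIP than in control, 41.4% in K27M and 39.9% in EED-null; nothing is read from these counts. In the plot of levels by library, the boxes of the replicates of a group sit at nearly the same height.

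**Figure D1:**
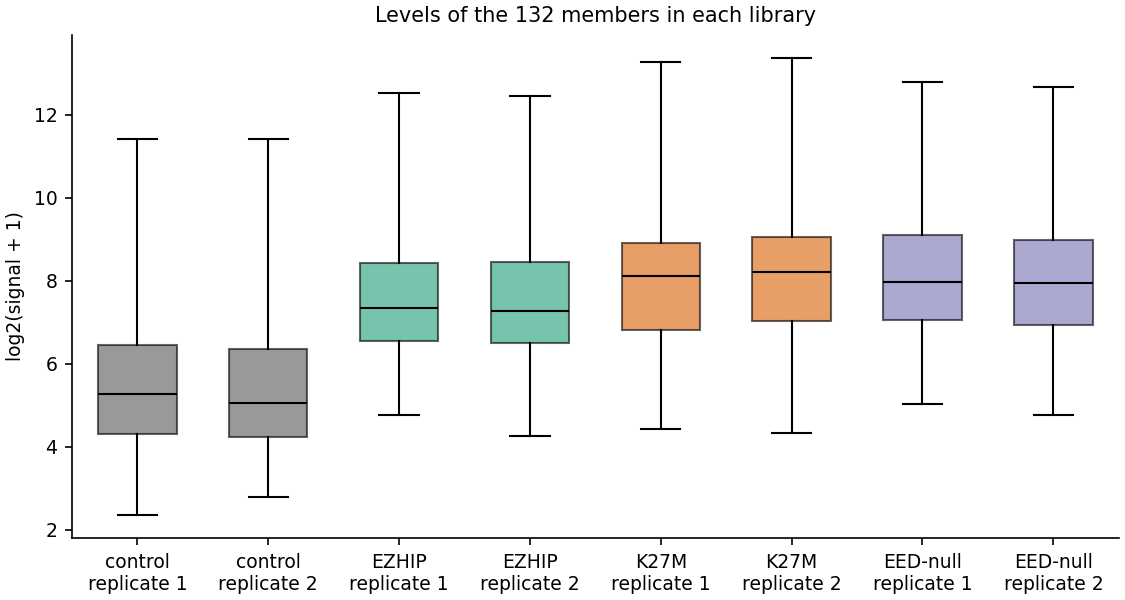
Levels of the 132 members in each of the 8 libraries, as log2(signal + 1); boxes span the quartiles, whiskers the whole range and the line is the median. Medians are 5.27 and 5.07 in control libraries and lie between 7.27 and 8.22 in the 6 libraries of the lines.

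As reads, the module took 3.73% and 3.68% of the reads on the listed genes in control libraries. With EZHIP the share was 15.2% and 15.1%, with K27M 20.6% and 21.4%, and without EED 22.4% and 21.9%. The rule made every member higher in each line, so a larger share there follows from the selection and supports nothing. The libraries held between 209390 and 424561 reads on the listed genes, and the median member had 36.5 and 44.0 reads in control libraries. The lowest read number of any member in a control library was 4, so the fold of the lowest genes is loosely held. RNA was measured over bulk cultures, and fewer cells that express a gene cannot be told apart from less RNA per cell.

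Several genes lie close to the limits of the rule. Samd5, Jag2 and Pde10a had the lowest control levels inside it (3.16, 3.17 and 3.24), and Tspan13, Smoc2 and Nup210 lay just outside (2.999, 2.98 and 2.94). Tnfsf15, Sema5a and Enc1 had the smallest qualifying rise (1.03, 1.03 and 1.04), and Hbegf, Fbxo2 and Ier3 missed it (0.9999, 0.9955 and 0.98). Hbegf encodes a growth factor that binds the EGF receptor, and it missed only through EED-null cells. The limits thus part genes whose values hardly differ.

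The largest smallest rise belonged to Cxcl14, which encodes a secreted chemokine. Its signal was 10.3 and 12.6 in control cells, 947 and 927 with EZHIP, 1179.8 and 1049.9 with K27M, and 3715 and 3751 in EED-null cells. The 6 libraries of the lines stood far above both control libraries, and EED-null exceeded the others; the rises were 6.24 with EZHIP, 6.49 with K27M and 8.23 in EED-null cells on the log2 scale. Sfrp1 encodes a secreted protein that binds Wnt ligands and holds them from their receptors. Sfrp1 read 31.8 and 19.9 in control cells, 2858 and 3007 with EZHIP, 399 and 468 with K27M, and 1921 and 1797 in EED-null cells. Here EZHIP was the highest line and K27M the lowest, with rises of 6.77 with EZHIP, 4.01 with K27M and 6.11 in EED-null cells. Prg4, the gene of the joint lubricant lubricin, read 12.3 and 17.8 in control cells, 256 and 185 with EZHIP, 251 and 206 with K27M, and 754 and 755 in EED-null cells, again with EED-null on top. Its exons share bases with Tpr on the opposite strand, and whether counting used strand is not given in the sources used here, so reads of such pairs cannot be told apart.

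Angptl7 encodes a secreted angiopoietin-like protein. Angptl7 signal was 8.21 and 12.6 in control cells, 144 and 130.0 with EZHIP, 409 and 507 with K27M, and 172 and 134 in EED-null cells; the K27M libraries were the highest. Plag1, a zinc finger transcription factor and oncogene of salivary gland adenomas, read 25.7 and 21.4 in control cells, 248 and 264 with EZHIP, 386 and 435 with K27M, and 625 and 624 in EED-null cells. In contrast to Angptl7, its order was EZHIP, then K27M, then EED-null, with no overlap between groups. Arap2, which switches off Arf GTPases, read 14.4 and 10.3 in control cells, 114 and 130.0 with EZHIP, 479.5 and 441 with K27M, and 133 and 165 in EED-null cells. K27M was again apart from the others. Gfra1, the GDNF-binding part of the Ret receptor, read 7.19 and 10.3 in control cells, 130.2 and 119.7 with EZHIP, 104 and 96.2 with K27M, and 99.8 and 72.7 in EED-null cells. EZHIP was its highest line, and the K27M and EED-null libraries overlapped.

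Fam84b, now called Lratd2, gave 32.9 and 32.5 in control cells, 299.8 and 346 with EZHIP, 479.5 and 552 with K27M, and 657 and 671 in EED-null cells. Cyfip2 encodes a part of the WAVE complex that drives actin branching. Cyfip2 gave 27.7 and 17.0 in control cells, 200.0 and 209 with EZHIP, 223 and 299 with K27M, and 355 and 266 in EED-null cells. Nova1, a splicing regulator best known from neurons, gave 11.3 and 13.3 in control cells, 152 and 111 with EZHIP, 358 and 374 with K27M, and 116 and 104 in EED-null cells. The plot of the 10 leading members shows these patterns side by side: a wide gap between control and every line, and an order of the lines that changes from gene to gene.

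**Figure D2:**
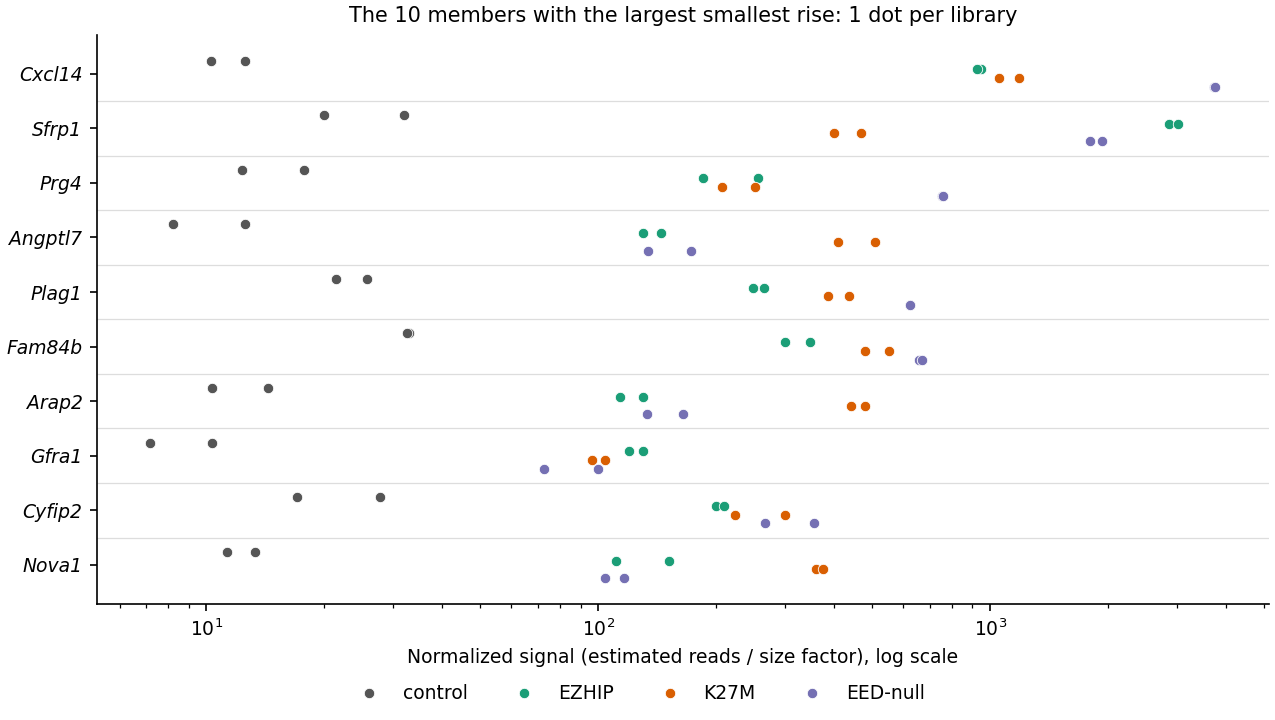
Signal of the 10 members with the largest smallest rise, 1 dot per library, on a log axis; colours give the group. Control dots lie at 32.9 or below for all 10 genes, and the dots of the lines at 72.7 or above.

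The promoters of 3 of these genes show how different the sequence at the start of a member can be. They were read from the mouse genome of build mm9, from 250 bases before to 50 bases after the start of the main GENCODE transcript, and are printed 5′ to 3′ on the strand of the gene with CpG dinucleotides in capitals. Cxcl14 (chr13:56397863-56398162, minus strand) has 22 CpGs, Arap2 (chr5:63157388-63157687, minus strand) has 47, and Angptl7 (chr4:147874520-147874819, minus strand) has 4.
Cxcl14: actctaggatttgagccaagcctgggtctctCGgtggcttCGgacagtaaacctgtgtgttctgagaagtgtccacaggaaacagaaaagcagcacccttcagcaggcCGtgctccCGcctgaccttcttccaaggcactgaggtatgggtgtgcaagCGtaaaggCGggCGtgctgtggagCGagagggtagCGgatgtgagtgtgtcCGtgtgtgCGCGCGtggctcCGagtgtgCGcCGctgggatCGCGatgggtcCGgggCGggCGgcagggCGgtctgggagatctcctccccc
Arap2: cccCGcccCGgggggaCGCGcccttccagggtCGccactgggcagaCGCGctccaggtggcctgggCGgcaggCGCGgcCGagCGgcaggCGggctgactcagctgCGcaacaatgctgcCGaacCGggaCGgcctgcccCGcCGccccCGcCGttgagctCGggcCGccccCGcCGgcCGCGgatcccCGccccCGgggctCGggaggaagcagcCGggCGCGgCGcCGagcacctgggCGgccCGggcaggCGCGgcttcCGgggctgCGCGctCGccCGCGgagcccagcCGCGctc
Angptl7: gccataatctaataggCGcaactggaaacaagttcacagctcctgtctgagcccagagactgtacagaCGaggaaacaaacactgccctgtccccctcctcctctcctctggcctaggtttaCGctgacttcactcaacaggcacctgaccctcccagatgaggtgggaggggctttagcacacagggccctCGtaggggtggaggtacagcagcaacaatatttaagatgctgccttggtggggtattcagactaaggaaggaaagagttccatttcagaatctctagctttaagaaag

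CpG content was then counted over all members. A start site was found for 129 of the 132 (Raet1a, Mobkl2b and Thsd4 had no unique match), and all 129 are protein-coding. The median member promoter held 25 CpGs (quartiles 11 and 34) at a GC content of 65.3%, with a CpG observed-to-expected ratio of 0.764. The median ratio was 0.702 in the 96 matched genes raised from a low control level, 0.613 in the 721 matched listed genes other than members, 0.588 in the 575 of those with a control level over 3, and 0.555 in 22030 protein-coding genes. With a CpG-rich window defined by at least 50% GC and a ratio of at least 0.6, 89 of 129 member promoters (69.0%) were CpG-rich, against 58.3% of the genes raised from a low control level, 48.0% of the other listed genes, 35.9% of the listed genes lower in EZHIP, which are among these, and 43.7% of all protein-coding genes. These shares describe the lists and carry no test. The histogram of the ratio shows most members at 0.7 to 1.1, with a smaller number of CpG-poor promoters such as that of Angptl7.

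**Figure D3:**
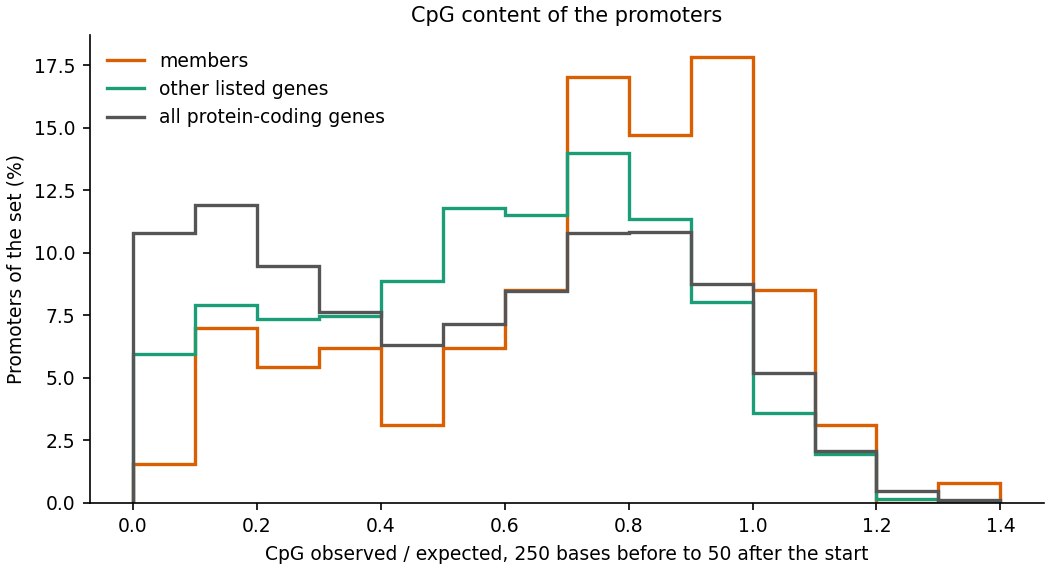
CpG observed-to-expected ratio in the 300 bases around the start, as percent of promoters in bins of 0.1, for members, the other listed genes and all protein-coding genes. The member line is highest in the bin from 0.9 to 1.0, at 17.8% of promoters.

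A few short motifs were searched on both strands of the same windows. TATAAA occurred in 12 of 129 member promoters (9.30%), against 13.3% of all protein-coding genes. CCAAT occurred in 39 (30.2%), against 37.7%. TGACGTCA, the palindrome bound by CREB-family factors, occurred in 5 (3.88%; Btg2, Cds1, Pmaip1, Zdbf2 and 1810011O10Rik), against 2.35%. GCGTGGGCG, the motif of EGR factors, occurred in 2 (1.55%, Prickle1 and Shank3), against 0.785%. In the 575 matched listed genes other than members with a control level over 3, the share of each motif was closer to that of members than the share in all protein-coding genes was. They were 10.8% for TATAAA, 35.0% for CCAAT, 2.78% for TGACGTCA and 1.39% for GCGTGGGCG. No share was tested. The motif searches do not overlap in sequence, and a match describes letters and not a bound site. In Zdbf2 (chr1:63319589-63319888, plus strand) TGACGTCA, in capitals, begins 55 bases before the start, and in Btg2 (chr1:135975648-135975947, minus strand) 201 bases before it.
Zdbf2: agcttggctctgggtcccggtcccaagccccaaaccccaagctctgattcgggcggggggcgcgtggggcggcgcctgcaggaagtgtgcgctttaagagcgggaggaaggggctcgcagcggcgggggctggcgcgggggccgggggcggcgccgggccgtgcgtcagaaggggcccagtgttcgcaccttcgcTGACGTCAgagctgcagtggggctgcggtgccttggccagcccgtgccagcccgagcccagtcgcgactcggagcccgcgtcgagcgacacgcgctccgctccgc
Btg2: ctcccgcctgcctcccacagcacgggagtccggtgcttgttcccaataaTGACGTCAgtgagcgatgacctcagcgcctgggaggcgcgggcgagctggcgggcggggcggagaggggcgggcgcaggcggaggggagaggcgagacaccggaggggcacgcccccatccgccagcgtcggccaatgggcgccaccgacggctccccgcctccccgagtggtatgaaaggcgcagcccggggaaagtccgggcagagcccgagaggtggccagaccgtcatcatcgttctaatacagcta

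By symbol patterns, 50 of the 132 members fell into at least 1 role class, and 82 into none. The classes with most members were transcription factors and chromatin proteins (12 of 57 listed genes), intracellular signalling (11 of 48) and secreted ligands with their secreted modulators (10 of 35). Metabolic enzymes held 5 of 31, surface receptors 4 of 47, adhesion proteins 3 of 26, cytoskeletal proteins 2 of 16, cell cycle genes 2 of 8 and imprinted genes 1 of 7, a class whose list leaves out Peg3 and Sfmbt2, imprinted genes that were set aside by name. For comparison, members are 132 of all 875. Of PRC1 and PRC2 subunits, 3 were listed (Pcgf5, Phf19 and Scml2) and 0 were members. Eed itself is not among the listed genes, so the deletion cannot be checked in these values.

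The secreted class holds signals of several families. Besides Cxcl14, Sfrp1 and Angptl7 it includes Pdgfc, a ligand of the PDGF alpha receptor, with 58.5 and 59.8 in control cells, 319.6 and 325 with EZHIP, 318 and 376 with K27M, and 640.4 and 655 in EED-null cells. Inhbb encodes the activin B subunit and Fst its secreted antagonist follistatin, so a ligand and its inhibitor are both members. Inhbb read 18.5 and 18.4 in control cells, 405 and 394 with EZHIP, 60.3 and 56.0 with K27M, and 495 and 452 in EED-null cells. Fst read 17.4 and 15.5 in control cells, 59.2 and 73.0 with EZHIP, 272 and 270.3 with K27M, and 95.7 and 81.4 in EED-null cells. They differed in order: Inhbb was lowest in K27M and Fst was highest there. Slit3, a guidance ligand of Robo receptors, read 50.3 and 53.9 in control cells, 312 and 267 with EZHIP, 1610.1 and 2354 with K27M, and 202 and 163 in EED-null cells. Sema3e, a semaphorin that binds plexin D1, read 74.9 and 66.4 in control cells, 249.7 and 225 with EZHIP, 1308 and 1365 with K27M, and 379 and 395 in EED-null cells. Both guidance ligands were highest in K27M. Wnt10a, by contrast, was lowest there among the lines, with 28.7 and 25.1 in control cells, 136 and 117 with EZHIP, 55.6 and 73.4 with K27M, and 175 and 155 in EED-null cells. Tnfsf15, a TNF-family cytokine, read 17.4 and 13.3 in control cells, 94.7 and 99.2 with EZHIP, 80.7 and 108 with K27M, and 31.9 and 33.0 in EED-null cells, so that its EED-null libraries were only about 2-fold above control. Over the 10 genes of the class the median rise was 2.52 for EZHIP, 3.99 for K27M and 3.0 for EED-null cells.

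Within the class of transcription factors, Zfp423 had the largest smallest rise. It marks cells committed to the fat lineage and partners EBF proteins, and read 28.7 and 19.9 in control cells, 149 and 147 with EZHIP, 209.6 and 292 with K27M, and 207 and 169.6 in EED-null cells. Mycn, a MYC-family factor of embryonic growth, read 17.4 and 12.6 in control cells, 78.1 and 46.7 with EZHIP, 286 and 375 with K27M, and 107 and 95.3 in EED-null cells. Its K27M libraries were several-fold above the rest. Egr2, the zinc finger factor also called Krox20, read 54.4 and 67.2 in control cells, 303 and 278 with EZHIP, 175 and 226 with K27M, and 320.2 and 270.4 in EED-null cells. Irx5, an Iroquois homeobox factor, read 24.6 and 8.86 in control cells, 117 and 113 with EZHIP, 56.6 and 49.8 with K27M, and 116 and 128 in EED-null cells; the control libraries of this gene differ by more than 2-fold. Over the 12 genes the median rise was 2.07 for EZHIP, 1.70 for K27M and 1.94 for EED-null cells. Plag1, Fos, Fosb and Eomes are transcription factors too, but the patterns do not cover their symbols; the smallest rise of Plag1, 3.39, exceeded that of Zfp423, 2.56.

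Several members are immediate-early genes, which serum and growth factors switch on within minutes without new protein synthesis. The following list was put together after the values were seen and gets no test. Of 37 such genes, 18 were listed and 8 were members: Fos, Fosb, Egr1, Egr2, Egr3, Nr4a1, Btg2 and Ptgs2. Members are 132 of all 875 genes, but the list was made with the values known, so nothing is read from its count. Egr1 had the highest mean log2 value of all members, with 2726 and 2718 in control cells, 5857 and 5561 with EZHIP, 9813 and 10635 with K27M, and 7118 and 6473 in EED-null cells. Its level was high in control already, and the lines differed from it by little more than the 2-fold limit in EZHIP. Fos, which joins Jun proteins to form AP-1, read 172 and 202 in control cells, 1017 and 887 with EZHIP, 1231 and 1353 with K27M, and 740.3 and 768 in EED-null cells.

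Fosb read 31.8 and 32.5 in control cells, 103 and 111 with EZHIP, 208 and 274 with K27M, and 83.2 and 80.4 in EED-null cells. Fos and Fosb were both highest in K27M. Nr4a1, an orphan nuclear receptor, read 186 and 182 in control cells, 828 and 821 with EZHIP, 353 and 459 with K27M, and 494 and 466 in EED-null cells, and Egr3 read 19.5 and 28.8 in control cells, 87.6 and 87.8 with EZHIP, 55.6 and 54.2 with K27M, and 132 and 84.3 in EED-null cells. In contrast to Fos, these were lowest in K27M among the lines, and Nr4a1 peaked with EZHIP. Btg2, an antiproliferative p53 target, read 257 and 239.9 in control cells, 668 and 633 with EZHIP, 799 and 787 with K27M, and 546 and 502 in EED-null cells. Ptgs2 encodes the inducible cyclooxygenase and read 74.9 and 67.2 in control cells, 436 and 464 with EZHIP, 338 and 296 with K27M, and 197 and 186 in EED-null cells, with EZHIP highest. The other 10 listed genes of this kind were outside the module: Jun, Ier2, Ier3, Dusp1, Dusp5, Atf3, Zfp36, Cyr61, Ctgf and Trib1. Jun, for example, read 732 and 752 in control cells, 1665 and 1600.5 with EZHIP, 2675 and 2741 with K27M, and 1116 and 1165 in EED-null cells, and missed through EED-null.

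The signalling class includes phosphatases that turn off ERK. Dusp4 read 10.3 and 10.3 in control cells, 66.3 and 79.8 with EZHIP, 137 and 148 with K27M, and 51.3 and 66.9 in EED-null cells. Dusp6 read 94.4 and 82.7 in control cells, 181 and 199.5 with EZHIP, 557 and 664 with K27M, and 399 and 422 in EED-null cells. Both were highest in K27M, and so was Etv4, an ETS factor induced by the same pathway, with 13.3 and 12.6 in control cells, 49.7 and 33.1 with EZHIP, 109 and 110.2 with K27M, and 36.04 and 57.2 in EED-null cells. These 3 are the members of a list of 16 genes of ERK feedback put together after the values were seen, of which 5 were listed. Beside 132 members among all 875 genes, nothing is read from a list so short and so chosen. The other listed genes, Dusp5 and Lif, were not members, and Dusp5 was highest with EZHIP, at 156 and 159.6 against 110.4 and 131 with K27M. The whole signalling class did not share this order, since its median rises were 1.413 for EZHIP, 2.30 for K27M and 2.54 for EED-null cells. Of its 11 genes, 5 were called higher in K27M than in EZHIP and 1 lower. Of all 875 genes, 32.6% were called higher and 26.2% lower. With so few genes in the class, nothing is read from its counts. Rasl11a, a small Ras-like protein, read 7.19 and 19.2 in control cells, 47.3 and 60.4 with EZHIP, 572 and 639.9 with K27M, and 146 and 165 in EED-null cells. K27M stood far above the other lines for Rasl11a, and its control libraries differed by more than 2-fold. Prkg2, the type II cGMP-dependent kinase, read 86.2 and 84.2 in control cells, 211 and 246 with EZHIP, 213 and 203 with K27M, and 189.9 and 209 in EED-null cells; K27M overlapped both other lines.

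Of the 4 receptors, Il1rl1 binds interleukin 33 and read 30.8 and 9.60 in control cells, 604 and 595 with EZHIP, 93.2 and 57.7 with K27M, and 112 and 90.1 in EED-null cells. Its EZHIP libraries were far above the other lines, and its control libraries differed by several-fold. Tnfrsf21, a death-domain receptor, read 23.6 and 5.91 in control cells, 41.4 and 58.1 with EZHIP, 102 and 129 with K27M, and 179 and 169.6 in EED-null cells. EED-null cells were highest, and the control libraries again lay far apart. Sema5a, a transmembrane semaphorin, read 145 and 154 in control cells, 318 and 295 with EZHIP, 288 and 336 with K27M, and 434 and 405 in EED-null cells, close to the limit in EZHIP and K27M. The adhesion class held L1cam, a neural cell adhesion molecule, with 42.1 and 39.1 in control cells, 221 and 197 with EZHIP, 132 and 130.3 with K27M, and 621 and 523 in EED-null cells. Its exons share bases with Arhgap4 on the same strand, so its reads are less certain. Lrrc32, which anchors latent TGF-beta at the cell surface, read 38.0 and 37.6 in control cells, 134 and 139 with EZHIP, 152 and 133 with K27M, and 132 and 110.5 in EED-null cells. Pcdh17, a protocadherin, read 93.4 and 64.2 in control cells, 262 and 237 with EZHIP, 453 and 495 with K27M, and 259 and 241 in EED-null cells. The 6 libraries of the lines lay close together for Lrrc32, and K27M was highest for Pcdh17.

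Kif1a, a kinesin motor that carries synaptic vesicle precursors, read 53.4 and 62.7 in control cells, 275 and 266 with EZHIP, 149 and 160.0 with K27M, and 975 and 936 in EED-null cells, with EED-null highest. Mylk, the kinase of myosin light chains, read 126 and 131 in control cells, 321 and 282 with EZHIP, 720.1 and 869.8 with K27M, and 401 and 358 in EED-null cells, with K27M highest. The cell cycle class held Btg2 and Ccnd2, the gene of cyclin D2. Ccnd2 read 529 and 443 in control cells, 1658 and 1576 with EZHIP, 1821 and 2204 with K27M, and 1748 and 1713 in EED-null cells. Its 6 libraries of the lines lay between 1576 and 2204. Among enzymes, B4galnt4 adds N-acetylgalactosamine to glycans and read 19.5 and 23.6 in control cells, 81.7 and 77.5 with EZHIP, 97.4 and 137 with K27M, and 76.2 and 84.3 in EED-null cells. Enpp1 makes extracellular pyrophosphate and read 90.3 and 120.3 in control cells, 339.7 and 345 with EZHIP, 448 and 430.1 with K27M, and 333 and 280.1 in EED-null cells. K27M was highest for both. Ptgs1, the constitutive cyclooxygenase, read 41.1 and 29.5 in control cells, 105 and 130.0 with EZHIP, 477 and 564 with K27M, and 83.2 and 105 in EED-null cells, so the cyclooxygenases had different leading lines, K27M for Ptgs1 and EZHIP for Ptgs2.

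Zdbf2 is the only member of the imprinted class, and is expressed from the paternal allele. Its signal was 107 and 96.0 in control cells, 1687 and 1662 with EZHIP, 572 and 628 with K27M, and 3444 and 3419 in EED-null cells. All groups were separate, in the order control, K27M, EZHIP and EED-null, with rises of 4.03 with EZHIP, 2.55 with K27M and 5.07 in EED-null cells. An antisense gene model shares bases with its exons. Parental alleles cannot be told apart in these values. Peg3 and Sfmbt2, imprinted genes too, met the numerical rule before they were set aside.

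The rule compared each line with control and not the lines with each other, though its floor under each line limits how far apart they can lie. Differences between the lines were tested with limma across all 875 genes, with Benjamini-Hochberg adjustment, and a gene was called at an adjusted p under 0.05 and a difference of at least 2-fold. Of the 132 members, 41 (31.1%) were called higher in K27M than in EZHIP, against 32.6% of all 875 genes, and 19 (14.4%) lower, against 26.2%. Between EED-null and EZHIP, 40 (30.3%) were called higher in EED-null, against 25.1%, and 8 (6.06%) lower, against 19.8%. Between K27M and EED-null, 29 (22.0%) were called higher in K27M, against 27.8%, and 23 (17.4%) lower, against 26.6%. The shares called higher lie near those of the whole table and are not a result about the members. The shares called lower were below those of the whole table in all 3 contrasts, which share libraries; these are counts without a test, on members chosen from the same libraries, and the floor bears on them. The median member difference was 0.41 for K27M minus EZHIP, 0.38 for EED-null minus EZHIP and -0.03 for K27M minus EED-null, beside 0.13, 0.15 and 0.01 for all listed genes.

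**Figure D4:**
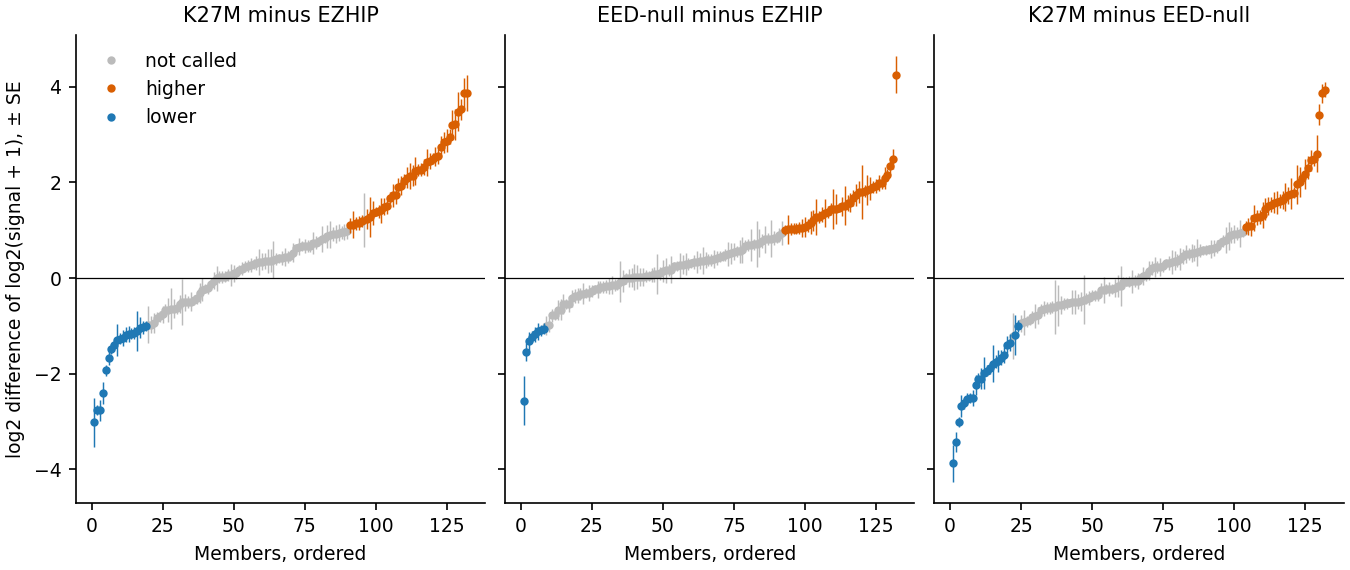
Differences between lines for the 132 members, ordered within each panel, as log2 differences with SE; orange and blue mark genes called higher and lower. The called genes number 41 and 19, 40 and 8, and 29 and 23 in the 3 panels, and the grey genes in between were not called.

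Rescaling each library to its median ratio over the listed genes moved K27M minus EZHIP by -0.14, and the rises over control by -0.31 for EZHIP, -0.45 for K27M and -0.39 for EED-null cells. Taken as differences of mean log2 values, the median rises of the members were 2.01, 2.43 and 2.41 before rescaling and 1.70, 1.997 and 2.03 after it. The rises given earlier used log2 of the mean signal, so they differ slightly. With the rescaled values 89 genes met the rule, 85 of them members. Since the table was chosen on the EZHIP comparison, its median gene is no neutral reference.

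The members that were most above EZHIP in K27M were Mbp, Gucy1a3 and 2610018G03Rik. Mbp, myelin basic protein, read 9.24 and 15.6 in control cells, 26.0 and 53.6 with EZHIP, 505 and 625 with K27M, and 94.3 and 89.2 in EED-null cells. The difference K27M minus EZHIP was 3.87 (SE 0.38, adjusted p = 1.6e-04) by limma, with both K27M libraries above both EZHIP libraries. Gucy1a3, a subunit of the nitric oxide receptor guanylate cyclase, read 8.21 and 13.3 in control cells, 37.9 and 21.7 with EZHIP, 427 and 434 with K27M, and 116 and 95.9 in EED-null cells, a difference of 3.86 (SE 0.31, adjusted p = 7.6e-05). 2610018G03Rik is now named Stk26 and encodes a kinase of the Golgi and the cell cortex; it read 27.7 and 40.6 in control cells, 68.7 and 93.5 with EZHIP, 952 and 913 with K27M, and 320.2 and 369 in EED-null cells, a difference of 3.52 (SE 0.23, adjusted p = 3.0e-05). All 3 genes were also called higher in EED-null than in EZHIP, a comparison that shares the EZHIP libraries, so EZHIP was the lowest of the lines.

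At the other end, Il1rl1, Inhbb and Sfrp1 were lower in K27M than in EZHIP. For Il1rl1 the difference was -3.01 (SE 0.52, adjusted p = 0.00204), for Inhbb -2.76 (SE 0.10, adjusted p = 4.3e-06), and for Sfrp1 -2.76 (SE 0.22, adjusted p = 7.2e-05), all by limma. In each case both K27M libraries lay below both EZHIP libraries. Even so, the K27M libraries of Sfrp1 were at 399 and 468, against 31.8 and 19.9 in control.

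Podxl, Thsd4 and Slit3 had the largest excess of K27M over EED-null. Podxl, a sialomucin of podocytes and blood vessels, read 66.7 and 68.7 in control cells, 463 and 407 with EZHIP, 2926 and 3885 with K27M, and 222 and 218 in EED-null cells. The difference K27M minus EED-null was 3.93 (SE 0.16, adjusted p = 5.5e-06) by limma, and K27M exceeded EZHIP by 2.95 as well. Thsd4, an extracellular protein that binds fibrillin, read 22.6 and 30.3 in control cells, 152 and 145 with EZHIP, 783 and 953 with K27M, and 51.3 and 66.9 in EED-null cells, a difference of 3.86 (SE 0.20, adjusted p = 1.3e-05). Slit3, with the values given above, differed by 3.42 (SE 0.22, adjusted p = 2.7e-05). K27M was called above both other lines for 25 members, which include Celsr1, Jag2, Agap2, Fst, Mycn, Mylk, Nova1 and Sema3e. Over all 875 genes the same held for 20%, beside 18.9% of members, so this number is near that of the whole table. K27M was called below both other lines for 12 members (9.09%, against 16.3% of listed genes), among them Inhbb, Sfrp1 and Zdbf2. The floor of the rule under each line bears on this share, so it is not a result about the members.

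Jag2, a ligand of Notch receptors, read 7.19 and 8.86 in control cells, 36.7 and 18.2 with EZHIP, 227 and 272 with K27M, and 77.5 and 67.8 in EED-null cells. Celsr1, a planar cell polarity cadherin, read 10.3 and 7.38 in control cells, 60.4 and 35.3 with EZHIP, 372 and 504 with K27M, and 105 and 85.3 in EED-null cells. For both genes K27M was highest, EED-null came next and EZHIP was lowest, and both started close to the lower limit of the rule. Gm98 (now Myrf), the membrane-bound activator of myelin genes, read 227 and 207 in control cells, 466 and 455 with EZHIP, 2373 and 3042 with K27M, and 505 and 454 in EED-null cells. Its EZHIP and EED-null libraries lay just past 2-fold over control while K27M was far above. Agap2, a GTPase-activating protein of Arf proteins, read 40.0 and 24.4 in control cells, 108 and 126 with EZHIP, 799.5 and 924 with K27M, and 172 and 174 in EED-null cells, with K27M highest.

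Eomes, Pgm5 and Elmo1 led the members that were higher in EED-null than in EZHIP. Eomes, a T-box factor of mesendoderm and cytotoxic lymphocytes, read 7.19 and 15.5 in control cells, 42.6 and 27.4 with EZHIP, 53.8 and 37.6 with K27M, and 634 and 708 in EED-null cells. The difference EED-null minus EZHIP was 4.25 (SE 0.39, adjusted p = 2.3e-04) by limma, and K27M minus EED-null was -3.87 (SE 0.39, adjusted p = 2.0e-04). Pgm5, a protein of muscle adherens junctions related to phosphoglucomutase, read 46.2 and 35.4 in control cells, 263 and 284 with EZHIP, 172 and 119 with K27M, and 1533 and 1539.8 in EED-null cells, with a difference from EZHIP of 2.49 (SE 0.21, adjusted p = 1.9e-04). Elmo1, which works with Dock proteins to activate Rac, read 39.0 and 52.4 in control cells, 121 and 99.2 with EZHIP, 217 and 207 with K27M, and 592 and 527 in EED-null cells, with a difference of 2.34 (SE 0.18, adjusted p = 1.4e-04). In all 3 genes the EED-null libraries stood above every other library. EED-null cells are a single clone, and what belongs to the clone cannot be told apart from what belongs to loss of Eed.

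EED-null was called above both other lines for 13 members (9.85%, against 11.2% of listed genes), among them Cxcl14, Prg4, Zdbf2, Kif1a, L1cam, Npnt and Cp. Cp, the copper-carrying ferroxidase ceruloplasmin, read 22.6 and 24.4 in control cells, 104 and 95.8 with EZHIP, 108 and 135 with K27M, and 412 and 357 in EED-null cells; its exons share bases with Hps3 on the opposite strand. Inhbb was lowest in K27M, where the difference from EED-null was -3.003, with adjusted p = 3.8e-06 by limma. Of the genes lower in EED-null than in EZHIP, Il1rl1, Tnfsf15 and Thsd4 differed most, by -2.56, -1.55 and -1.32. Tnfsf15 and Thsd4 were called below both other lines in EED-null, and they were the only members of that kind (1.52%, against 9.49% of listed genes). Since the rule kept only genes at least 2-fold above control in EED-null cells, nothing is read from the low share.

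EZHIP was called above both other lines for 4 members, Axin2, Coch, Il1rl1 and Klf5 (3.03%, against 9.60% of listed genes). Here too the floor of the rule under K27M and EED-null bears on the share. Axin2 is a scaffold of the beta-catenin destruction complex and a target of Wnt signalling. It read 55.4 and 58.3 in control cells, 623 and 539 with EZHIP, 146 and 157 with K27M, and 287 and 268 in EED-null cells. The difference K27M minus EZHIP was -1.93 (SE 0.12, adjusted p = 2.4e-05) and EED-null minus EZHIP -1.06 (SE 0.12, adjusted p = 4.7e-04) by limma. Coch encodes cochlin, an extracellular protein of the inner ear, and read 8.21 and 8.86 in control cells, 73.4 and 65.0 with EZHIP, 20.4 and 21.9 with K27M, and 34.7 and 26.2 in EED-null cells. Klf5, a Kruppel-like factor of proliferating epithelia and smooth muscle, read 82.1 and 83.4 in control cells, 588 and 519 with EZHIP, 233 and 259.6 with K27M, and 256 and 261 in EED-null cells. EZHIP was called below both other lines for 20 members (15.2%, near the 13.1% of listed genes), among them Cxadr, Shroom3, Dusp6 and Flt4.

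Cxadr, the coxsackievirus and adenovirus receptor of tight junctions, read 297 and 308 in control cells, 1417 and 1470.5 with EZHIP, 3627 and 3942 with K27M, and 3989.8 and 4021 in EED-null cells. EZHIP lay below K27M by 1.39 and below EED-null by 1.47 on the log2 scale. Shroom3 binds actin and drives apical constriction, and read 212 and 232 in control cells, 482 and 442 with EZHIP, 2031 and 2433 with K27M, and 1822 and 1643 in EED-null cells. Spp1 encodes osteopontin, a secreted phosphoprotein of bone and wound fibroblasts, and read 444 and 452 in control cells, 2214 and 2308 with EZHIP, 1189 and 1072 with K27M, and 1325 and 1329.5 in EED-null cells. It was highest with EZHIP, whereas Cxadr and Shroom3 were lowest there among the lines. Spp1, Cxadr and Shroom3, with Egr1 and Ccnd2, had the highest mean log2 values of all members.

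**Figure D5:**
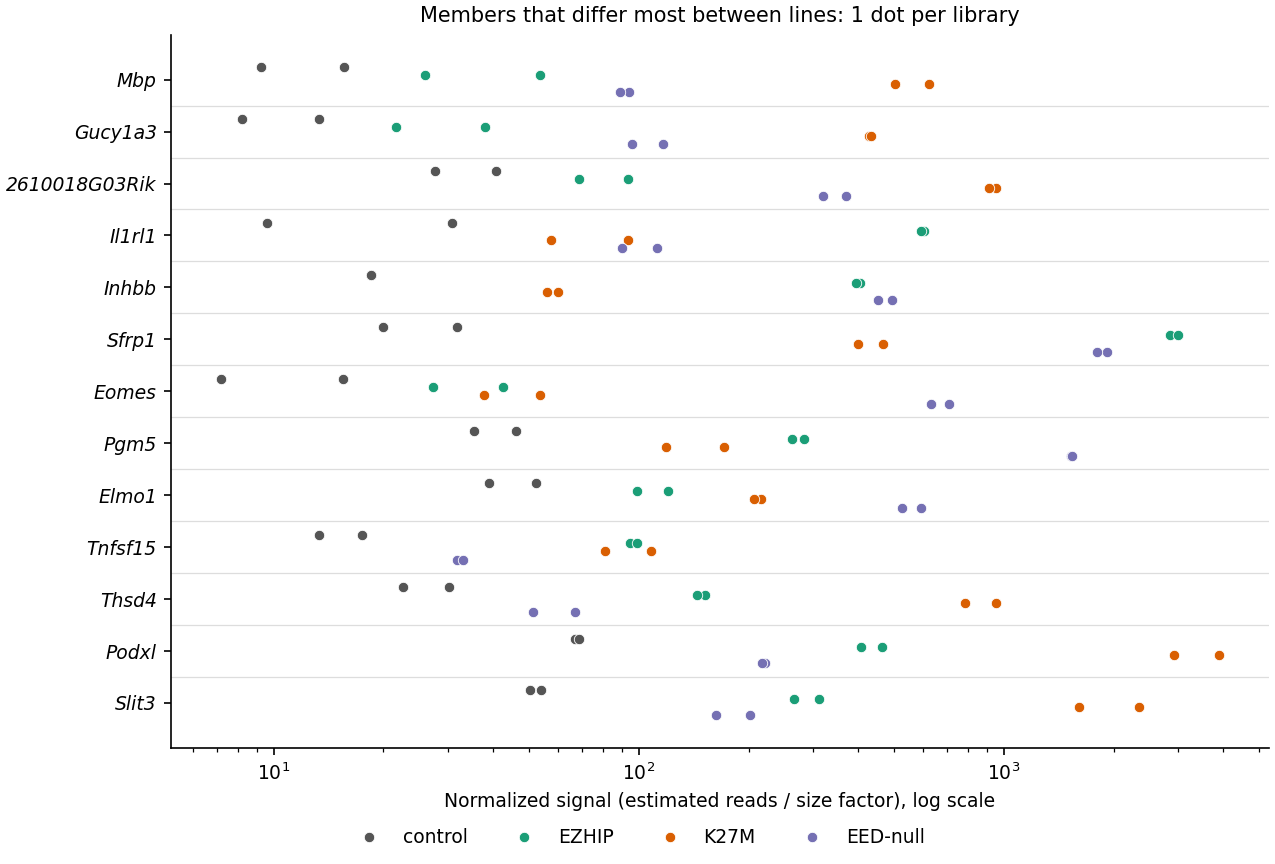
Signal of the 13 members that hold the 3 largest called differences in each direction of each contrast between lines, 1 dot per library, on a log axis; colours give the group. Mbp, Gucy1a3 and 2610018G03Rik peak in K27M, Eomes, Pgm5 and Elmo1 in EED-null, and Il1rl1 and Sfrp1 in EZHIP.

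For 48 members (36.4%, against 21.7% of listed genes) no contrast between lines was called, which does not show that their levels are equal. The floor of the rule limits how far apart the lines can lie, so the larger share is not a result about the members. The range of the 3 rises was under 0.5 for 13 members and at least 2 for 37. It was smallest for Prkg2, Aqp1 and Lrrc32. Aqp1, a water channel, read 229 and 214 in control cells, 853 and 836 with EZHIP, 662 and 809.5 with K27M, and 750.0 and 781 in EED-null cells, with rises of 1.93 with EZHIP, 1.73 with K27M and 1.78 in EED-null cells. Members with a control level of 5.5 or less had median rises of 2.08 for EZHIP, 2.99 for K27M and 2.999 for EED-null cells, and those above it 1.82, 1.99 and 1.92. The control level enters both the split and the rise, and the rule used both, so nothing is read from this order.

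Compared per kilobase of the main transcript, Egr1 was the most abundant member, with a mean of 2052 signal per kilobase over the libraries. By the same mean, Spp1 followed with 916 and Cxcl14 with 795. The place of Cxcl14 rests on EED-null cells, at 2048, since it had 6.26 in control, 513.9 with EZHIP and 611.5 with K27M. With EZHIP it lay below Sfrp1 (671) and Hmga1 (656), and with K27M below Cxadr (660), Podxl (633) and Fos (613). The median per kilobase was 10.4 in control cells for the 129 members with a transcript length, and 43.6, 64.3 and 56.8 in EZHIP, K27M and EED-null. For the 721 other listed genes the medians were 35.0, 28.9, 38.7 and 32.4 in the same order. Genes raised from a low control level reached 12.3, 8.93 and 14.1 in the lines, from 0.220 in control. The rule used these same libraries and the other listed genes include those lowered with EZHIP, so the order of these medians largely follows from the selection.

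Members lay on all autosomes and on X. They were 129 of 850 placed genes in all. Chromosome 1 held most, 15 of its 65 listed genes (23.1%), and chromosome 15 the largest share, 9 of 32 (28.1%), while chromosomes 2 and 9 held 3 of 61 and 2 of 58. The closest pair of member starts was Plag1 and Chchd7, which lie head to head on chromosome 4 with the starts of their main transcripts, at 3865529 and 3866061, 532 bases apart (whole gene spans: Plag1 at chr4:3828143-3865570, minus strand, and Chchd7 at chr4:3866035-3878193, plus strand, build mm9). Chchd7 read 24.6 and 37.6 in control cells, 94.7 and 107 with EZHIP, 186 and 185 with K27M, and 164 and 231 in EED-null cells. Both genes of the pair were thus above control in all lines, with rises for Chchd7 of 1.67 with EZHIP, 2.54 with K27M and 2.62 in EED-null cells. The next pair, Glrb and Pdgfc, had starts 122756 bases apart. Near Wnt10a, 19624 bases away, Wnt6 stood above control in EZHIP and EED-null cells, by 2.69 and 2.15, and stood at -0.43 in K27M, so it was not a member.

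Exons of 24 of the 129 placed members share bases with another gene model, which in 22 cases lies on the opposite strand only. These include Egr1, Axin2, Cyfip2, Fam84b, Gfra1, Hmga1, Pdgfc, Shank3, Shroom3 and Tes, besides those named above, and part of their signal may belong to the partner. Gm7694 shares bases with Nos1ap on the same strand. Raet1a belongs to a family of nearly identical genes and Hmga1 has nearly identical processed copies, so their signal is uncertain.

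Markers of cell types were looked up as lists. The table holds 3 of 15 fibroblast markers, Col3a1, Dcn and Fap, and none is a member. Their summed signal was 18112 and 17719 in control, 6934 and 6460.4 with EZHIP, 5560.5 and 5876 with K27M, and 5805 and 5723 without EED. Col3a1 was the most abundant except with K27M, where Dcn was, and the lower sum there comes from Col3a1 alone. Dcn, the proteoglycan decorin, read 364 and 380.1 in control cells, 129 and 179 with EZHIP, 3192 and 3255 with K27M, and 69.3 and 73.7 in EED-null cells. Fap read 82.1 and 94.5 in control cells, 8.29 and 13.7 with EZHIP, 162 and 104 with K27M, and 2.77 and 8.72 in EED-null cells. Both were above control with K27M, in both libraries, and below it with EZHIP and without EED. Epithelial markers held 2 of 8 (Epcam and Krt14), with sums of 6.16 and 3.69 in control, 59.2 and 36.5 with EZHIP, 109 and 141 with K27M, and 43.0 and 24.4 without EED. Epcam was the most abundant except with EZHIP, where Krt14 was. Kdr, the only listed endothelial marker of 6, read 9.24 and 9.60 in control cells, 52.1 and 51.3 with EZHIP, 157 and 222 with K27M, and 11.1 and 10.7 in EED-null cells. Of 8 neural markers, Sox2 and Stmn2 were listed, with sums of 44.1 and 45.0 in control, 168 and 138 with EZHIP, 14.8 and 10.5 with K27M, and 319 and 309.9 in EED-null cells. The sums in control and K27M libraries are Stmn2 alone, since Sox2 was at 0 there, and those in the other lines are mostly Sox2. Stmn2 read 44.1 and 45.0 in control cells, 2.37 and 1.14 with EZHIP, 14.8 and 10.5 with K27M, and 73.5 and 39.7 in EED-null cells, lowest with EZHIP. Krt14 was at 0 in control libraries. Sox9, the only cartilage and bone marker listed of 6, read 18.5 and 28.8 in control cells, 95.9 and 100.3 with EZHIP, 26.9 and 25.4 with K27M, and 83.2 and 71.7 in EED-null cells. Of the short lists of haematopoietic, muscle, neural crest and Schwann, and fat markers, no gene was listed, which says only that these genes did not pass the EZHIP comparison. Members outside the lists, such as Mbp, Egr2 and Zfp423, are also known from such cells. The part of other cell types in the rises of the members was not tested.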

How the data were processed

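RNA of 8 mouse fibroblast libraries, 2 each of control, EZHIP, K27M and EED-null cells, was sequenced. The deposited values are normalized signal: per the submitters' processing notes and the study's methods, the authors assigned reads to the mm9 transcriptome with RSEM 1.2.4, divided the estimated reads by a size factor per library, and kept the genes that EBSeq called at least 2-fold different between EZHIP and control. The value of 1 read in a library was taken as the largest step tried of which every signal is a multiple of 0.01. Reads per gene are the signal divided by this value. Not all are whole, so no count model was used. The members and all gene lists were chosen with earlier results of these data known.

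Log2(signal + 1) was fitted with limma 3.58.1 in R 4.3.3 (group means over all 8 libraries, 4 residual degrees of freedom), with Benjamini-Hochberg adjustment over 875 genes; an exact test of 2 against 2 libraries cannot go below p = 0.333. Named genes are the 10 members with the largest smallest rise, the 5 with the highest mean log2 value, the 3 largest called differences in each direction of each contrast between lines, the 3 nearest each limit, up to 4 per role class and the 3 with the smallest range of rises; other genes were picked after their values were seen, and 1 gene that the rule names is not reported. Promoters and transcripts come from mm9 with GENCODE.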

Additional observations from a re-analysis of the deposited data

Results flagged for a closer look

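The members in which a contrast between lines was largest in either direction stood out, each by the limma test of the difference itself. Mbp was higher in K27M than in EZHIP by 3.87 on the log2 scale, and Il1rl1 was lower there (-3.01). Eomes was higher in EED-null than in EZHIP by 4.25, and Il1rl1 lower (-2.56). Podxl was higher in K27M than in EED-null by 3.93, and Eomes lower (-3.87). Values per library are given above. Groups of 2 libraries are too small for a check of single samples that stand apart.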

How the results depend on the processing

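The number of members was 123 to 134 with any single library left out, 134 and 145 with pseudocounts of 0.1 and 5, 95 when every library had to exceed every control library by 1 on the scale of log2(signal + 1), with both control libraries over 3, 141 with no symbol set aside and 89 after rescaling. The genes changed more than the totals. Without control replicate 1, 121 of the 130 genes were members as first defined, and with a pseudocount of 5, 126 of the 145. The 6 counts of members called between lines were, without any single library, 37 to 45 and 16 to 19 (K27M higher and lower than EZHIP), 33 to 40 and 7 to 9 (EED-null against EZHIP), and 27 to 31 and 21 to 24 (K27M against EED-null). A left-out library leaves its group with 1 sample, which is then assumed to vary like the others. Only dropping the 2-fold limit moved counts by over 1.5 times: with the adjusted p alone they were 67 and 32, 17 lower in EED-null than in EZHIP, and 51 and 45. Replicate numbers are shared between groups, but their deviations were not correlated (r from -0.09 to 0.11), so they share only a number; with the replicate block as a term the 6 counts were 41, 19, 40, 8, 29 and 23, as without it. All 270 refits of the 18 named differences kept their direction and their call. Depth limits the members with fewest reads: the lowest had 4 in a control library.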

Other observations

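Genes of Wnt signalling were gathered after their values were seen, and get no test. Of 82 such genes 25 were listed and 7 were members: Axin2, Nkd2, Sfrp1, Wnt10a, Prickle1, Celsr1 and Frat2. Nkd2, which binds Dishevelled, read 12.3 and 26.6 in control cells, 122 and 148 with EZHIP, 57.5 and 51.6 with K27M, and 230.1 and 207 in EED-null cells. Prickle1, a planar cell polarity protein, read 88.3 and 112 in control cells, 318 and 278 with EZHIP, 402 and 395 with K27M, and 549 and 511 in EED-null cells, and Frat2, which binds GSK3, read 14.4 and 15.5 in control cells, 58.0 and 63.8 with EZHIP, 108 and 88.3 with K27M, and 104 and 126 in EED-null cells. The members of this list had no shared order of the lines, since Axin2 and Sfrp1 were highest in EZHIP, Celsr1 in K27M, and Nkd2, Wnt10a and Prickle1 in EED-null.

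Outside the module, Fzd1, a Wnt receptor, read 776 and 749.9 in control cells, 6694 and 6685 with EZHIP, 722 and 756 with K27M, and 2678 and 2818 in EED-null cells, so that its K27M libraries overlapped those of control. Lef1, a partner of beta-catenin, read 3.08 and 1.48 in control cells, 74.6 and 59.1 with EZHIP, 15.8 and 13.1 with K27M, and 218 and 176 in EED-null cells and missed the control limit. Rspo2, a secreted enhancer of Wnt signalling, went the other way, with 1628 and 1718 in control cells, 116 and 128 with EZHIP, 48.2 and 49.6 with K27M, and 29.1 and 37.8 in EED-null cells.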
